A study of Mus musculus with 4 samples.

Results

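The collagen gene family in the mouse liver was described across 4 conditions, given by 2 genotypes and 2 diets. Members were all genes whose transcript accession on the array matched a mouse symbol of the form Col, number, a, number. The rule gave 44 genes of 23458 on the array, read by 70 probes, and it used no measured value. Total liver RNA of male mice on the C57BL/6 background was hybridised to 1-colour Agilent arrays of 62976 spots. F/F mice carried Lpiat1 (also called Mboat7, an acyltransferase of phosphatidylinositol) flanked by loxP sites and had no Cre. LKO mice carried the same floxed alleles together with Alb-Cre, whose albumin promoter acts in hepatocytes, so that the other liver cells kept the gene. Mice of both genotypes stayed on standard chow or were fed a high-fat diet (HFD) for 18 weeks from 6 weeks of age, and all were 24 weeks old. Each combination of genotype and diet was represented by 1 array, named here F/F chow, F/F HFD, LKO chow and LKO HFD. Whether the RNA of an array was pooled from several mice is not given in the sources used here.

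Collagens are matrix proteins whose chains wind around each other into a rope-like helix, are secreted and are then cut and cross-linked outside the cell. Fibrillar collagens form the tensile fibres of scar tissue, basement membrane collagens form sheets under epithelium and around vessels, and other classes coat fibres, anchor them or span the cell membrane. In the liver, hepatic stellate cells and portal fibroblasts are the best known producers of fibrillar collagen, and hepatocytes make much of the multiplexin Col18a1.

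Values below are relative signals, the background-subtracted intensity at the gene's brightest probe divided by the 75th percentile of that array, and differences are on the log2 scale. Because probes differ in how well they bind, relative signals were compared between arrays and not between genes. With 1 array per condition no difference has a replicate check, and neither tests nor p-values are given. Genes were counted as higher or lower where they differed at least 1.5-fold, and the share of all genes past that size was set beside each count. Repeated spots of a probe on an array differed with a SD of 0.09 (log2, n = 300 probes), which leaves out differences between mice. The LKO minus F/F difference on HFD differed between 2 probes of a gene with a SD of 0.32 (n = 5127 genes). This SD was not computed for the other comparisons. A gene flagged as well above background on only 1 of both arrays has only a bound, written as at least. That bound is taken against the lowest detected signal of the other array, or the gene's own signal there if higher. A gene has no value if this bound does not clear 0 or if the gene is below background on both arrays. Where 4 values follow each other without labels, the chow arrays come before the HFD arrays, with F/F before LKO on each diet.

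The arrays were alike in the share of spots detected and in saturation. Between 53.0% and 57.0% of the spots were well above background, the 75th percentile of the processed signal lay between 213 and 296, and 0 spots were saturated. They differed in which probes were detected. On LKO HFD alone 1357 probes were well above background, against 573, 305 and 490 on F/F chow, LKO chow and F/F HFD alone. The lowest relative signal well above background was 0.0264 on LKO HFD and between 0.0317 and 0.0379 on the others. Of the collagens, 30 were detected on LKO HFD and between 24 and 26 on the others. Mboat7 itself had relative signals of 4.97 (F/F) and 4.04 (LKO) on chow and 4.49 (F/F) and 3.72 (LKO) on HFD, lower in LKO by 0.30 on chow and 0.27 on HFD in size of the log2 difference. The part of the transcript that the probe reads was not determined, so this is a weak check of the genotype labels.

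By the brightest probe, 21 of the 44 collagens were well above background on all 4 arrays (47.7%, against 59.6% of all genes), 12 on some of them and 11 on none. The genes detected throughout comprised 6 of the 11 fibrillar, 3 of the 6 basement membrane, 3 of the 6 beaded filament, 4 of the 9 fibril-associated, 1 of the 2 multiplexin, 1 of the 3 short-chain network, 2 of the 4 transmembrane and 1 of the 3 anchoring and other collagens. Not detected on any array were Col4a3, Col4a4, Col8a2, Col9a1, Col9a3, Col10a1, Col15a1, Col19a1, Col22a1, Col25a1 and Col28a1. This set includes Col10a1, the collagen of growth plate cartilage, and Col4a3 and Col4a4, chains of the kidney filter. It also includes Col15a1, a multiplexin of vascular basement membranes, for which no difference could be given.

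**Figure D1:**
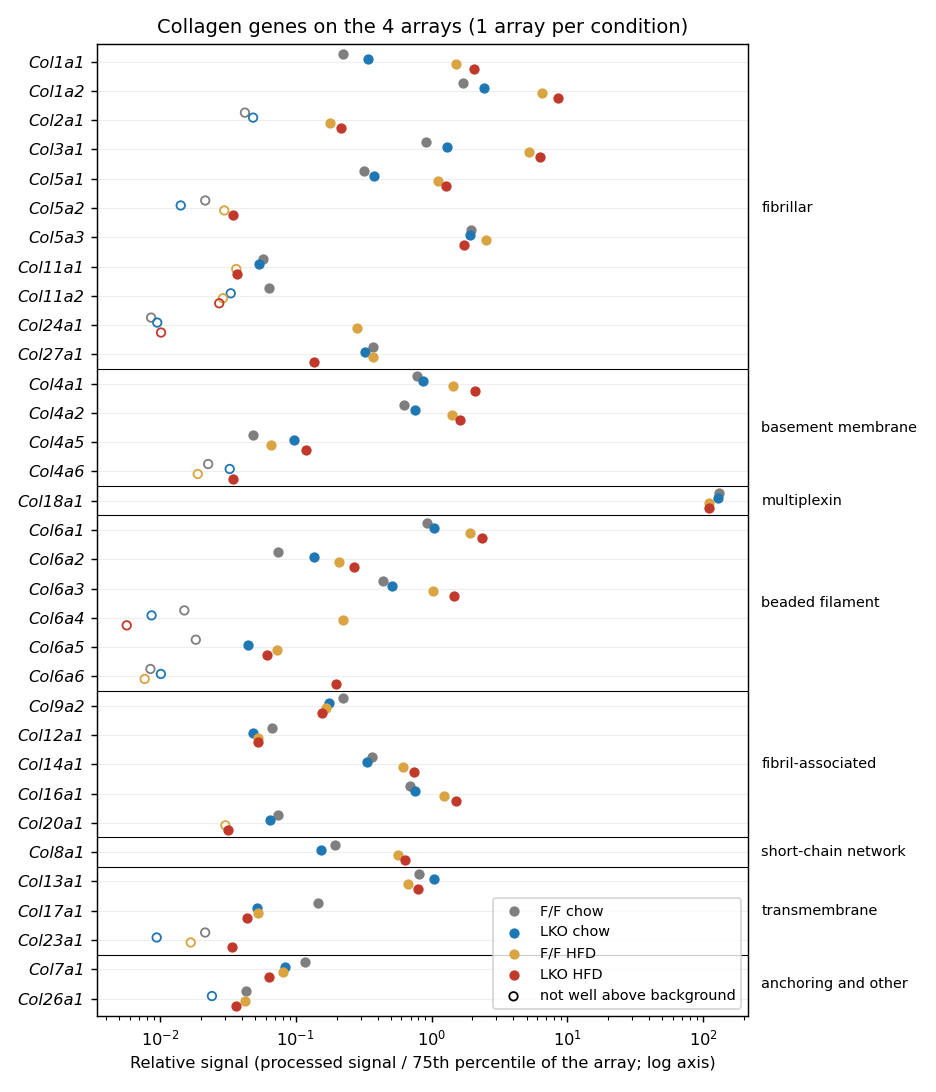
Relative signal (log axis) of the 33 collagen genes well above background on at least 1 array, 1 point per array, grouped by class; open points were not well above background. Levels can be compared between arrays within a row, not between rows. Col1a1, Col1a2, Col3a1 and Col5a1 lie to the right on both HFD arrays, whereas the 4 points of Col18a1 lie close together between 109 and 130.

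The collagens differed most between diets. In F/F, 16 collagens were at least 1.5-fold higher on HFD than on chow and 4 were lower, among 29 with a value, whereas 13.2% of all genes were higher and 9.60% lower. In LKO, 14 were higher and 2 lower among 26 with a value, against 15.4% and 11.7% of all genes. The median collagen difference was 0.84 in F/F and 1.0 in LKO, beside medians of all genes of -0.02 and -0.07. The collagen medians fell to 0.43 and 0.35 with normexp, a model-based background correction that draws dim genes together, and to 0.33 and 0.24 with a gene's probes averaged, and the LKO median was -0.035 without the filter on dim genes. With normexp 12 collagens were higher and 0 lower in F/F among 28 with a value, beside 5.59% and 3.91% of all genes. In LKO, normexp gave 11 higher and 1 lower among 27, beside 7.68% and 5.77%. Of the 21 collagens detected throughout, 12 were higher and 1 lower in each genotype (median 0.84 in F/F and 1.01 in LKO), while of all genes detected throughout 11.9% were higher and 8.21% lower in F/F and 13.5% and 10.8% in LKO. At least 2-fold differences were found for 13 collagens higher and 2 lower in F/F, beside 5.21% and 2.94% of all genes, and for 13 higher and 2 lower in LKO, beside 8.12% and 4.08%. With the deposited value table in place of the 75th percentile the shares of all genes became 18.0% higher and 6.32% lower in F/F and 19.4% and 7.73% in LKO, and the collagen counts were 17 and 3 in F/F and 15 and 2 in LKO. Both diet comparisons use different arrays, and 13 collagens were higher in both, that is 13 of the 16 raised in F/F and 13 of the 14 raised in LKO. The same overlap was not computed for all genes, so whether collagens stand out in it is not known. In RNA of whole liver, more cells of a type and more RNA per cell cannot be told apart.

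Of the diet differences measured on both arrays, those of Col1a1 and Col3a1, fibrillar chains of scar tissue, were the largest in each genotype. Col1a1, which encodes the major chain of type I collagen, has a probe printed at 10 spots on each array, of which those marked as outliers were left out. Its relative signal was 0.222 ± 0.0161 (SD, n = 9 spots) in F/F and 0.343 ± 0.0273 (SD, n = 10 spots) in LKO on chow, and 1.5 ± 0.0470 (SD, n = 9 spots) in F/F and 2.04 ± 0.0967 (SD, n = 9 spots) in LKO on HFD. Both HFD arrays were far above both chow arrays, and within each diet the LKO array was the higher. The HFD array was 6.79-fold above the chow array in F/F and 5.96-fold above it in LKO. The other probes of Col1a1 gave diet differences of 2.84 and 3.06 in F/F and of 2.65 and 2.63 in LKO.

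Col1a2, the partner chain of Col1a1, had relative signals of 1.71 (F/F) and 2.42 (LKO) on chow and 6.50 (F/F) and 8.53 (LKO) on HFD, a diet difference of 1.92 in F/F and 1.82 in LKO. Col3a1, whose type III fibres mix with type I in the liver, had 0.905, 1.29, 5.26 and 6.30 in the same order, and its diet differences were 2.54 and 2.29. The arrays ranked alike for both genes, with LKO HFD highest and F/F chow lowest. Col5a1, a chain that helps to start type I fibrils, followed with relative signals of 0.317, 0.378, 1.11 and 1.28 and diet differences of 1.81 and 1.76. The diet difference of Col1a1 was larger than that of Col1a2 by 0.84 in F/F and 0.76 in LKO. This gap depended on the background correction, since with normexp the differences in F/F were 1.85 for Col1a1 and 1.79 for Col1a2. The promoters of Col1a2 and Col3a1 are shown because these chains rose together on HFD in both genotypes. Sequences are from the RefSeq table of GRCm38.p6, run from 250 bases before to 50 after the start of transcription, and carry in capitals each match, on either strand, to CCAAT (the CCAAT box), TATAAA (the TATA box), GGGCGG (the GC box) or TGACTCA (an AP-1 motif), none of which contains another. The Col1a2 window is chr6:4505368-4505667 on the plus strand, and the Col3a1 window is chr1:45311288-45311587 on the plus strand.
Col1a2: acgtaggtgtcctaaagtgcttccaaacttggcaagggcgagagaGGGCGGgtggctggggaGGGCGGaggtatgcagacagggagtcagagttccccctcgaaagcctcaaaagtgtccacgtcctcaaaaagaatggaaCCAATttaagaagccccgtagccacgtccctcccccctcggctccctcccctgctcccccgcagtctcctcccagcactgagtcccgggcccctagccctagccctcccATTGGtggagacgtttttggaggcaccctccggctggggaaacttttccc
Col3a1: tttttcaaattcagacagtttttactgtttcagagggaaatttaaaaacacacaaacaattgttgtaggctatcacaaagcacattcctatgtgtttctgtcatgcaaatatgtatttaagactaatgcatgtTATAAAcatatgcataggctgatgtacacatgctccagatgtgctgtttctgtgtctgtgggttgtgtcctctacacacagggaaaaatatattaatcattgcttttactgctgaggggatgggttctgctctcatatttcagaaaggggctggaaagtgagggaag

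In the Col1a2 window CCAAT was found at positions -109 and 1, the latter on the minus strand, and GGGCGG at -205 and -188, counted from the start of transcription, with the first base after it as 1. The Col3a1 window held TATAAA at position -117 and no match to the other motifs. Of all 32851 promoters in the table, 37.4% held CCAAT, 35.7% GGGCGG, 13.6% TATAAA and 5.20% TGACTCA. The table held 38 promoters of 35 collagen genes, of which 13 held CCAAT (34.2%), 23 GGGCGG (60.5%), 5 TATAAA (13.2%) and 1 TGACTCA (2.63%). Of the 13 genes raised by HFD in both genotypes, 10 had promoters in the table, 11 in all, and 8 of these promoters held GGGCGG, belonging to Col16a1, Col1a2, Col4a1, Col4a2, Col5a1, Col6a2 and Col8a1. These are matches of letters and not measured binding sites.

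The remaining fibrillar genes went different ways. Col5a3, another type V chain, had relative signals of 1.96 (F/F) and 1.91 (LKO) on chow and 2.51 (F/F) and 1.72 (LKO) on HFD, so the F/F HFD array was the highest and LKO HFD the lowest. The third chain of type V, Col5a2, was near the floor throughout (0.0216, 0.0142, 0.0298 and 0.0345) and well above background on LKO HFD alone. Col2a1, known as the main collagen of cartilage, was detected on both HFD arrays (0.178 in F/F and 0.215 in LKO) and on neither chow array (0.0423 and 0.0486). It was thus at least 4.20-fold higher on HFD in F/F and at least 4.43-fold higher in LKO, but with normexp these differences were 0.43 and 0.49 on the log2 scale.

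Col11a1 and Col11a2, minor fibrillar chains also best known from cartilage, were dim. Col11a1 had relative signals of 0.0579, 0.0537, 0.0365 and 0.0367 in the same order, and both HFD arrays were lower than both chow arrays. Its diet difference was at least 0.66 in size in F/F and -0.55 in LKO. The brighter probe of Col11a2 was well above background on F/F chow alone (0.0631, against 0.0332, 0.0291 and 0.0273). Its other probe was not detected there (0.0365) but was on LKO chow (0.0498) and LKO HFD (0.0332), so the probes disagree on which arrays the gene was detected.

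Basement membrane chains of the liver rose on HFD by less than the type I and III chains. Col4a1 had relative signals of 0.776 (F/F) and 0.869 (LKO) on chow and 1.43 (F/F) and 2.08 (LKO) on HFD, and Col4a2 had 0.626, 0.761, 1.42 and 1.61. Both genes had the same order of the arrays, from F/F chow up to LKO HFD. The diet differences were 0.89 in F/F and 1.26 in LKO for Col4a1, and 1.19 and 1.08 for Col4a2. These genes encode the common chains of type IV collagen and lie head to head, transcribed in opposite directions from a shared stretch. Their windows, chr8:11312777-11313076 on the minus strand for Col4a1 and chr8:11312555-11312854 on the plus strand for Col4a2, share 78 bases and are shown for that reason, with the same motifs in capitals.
Col4a1: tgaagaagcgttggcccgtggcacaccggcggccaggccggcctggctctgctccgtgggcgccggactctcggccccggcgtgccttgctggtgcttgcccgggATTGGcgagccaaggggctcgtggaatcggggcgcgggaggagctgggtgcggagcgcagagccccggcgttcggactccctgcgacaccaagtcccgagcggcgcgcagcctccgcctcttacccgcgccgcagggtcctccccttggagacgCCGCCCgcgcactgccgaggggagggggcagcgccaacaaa
Col4a2: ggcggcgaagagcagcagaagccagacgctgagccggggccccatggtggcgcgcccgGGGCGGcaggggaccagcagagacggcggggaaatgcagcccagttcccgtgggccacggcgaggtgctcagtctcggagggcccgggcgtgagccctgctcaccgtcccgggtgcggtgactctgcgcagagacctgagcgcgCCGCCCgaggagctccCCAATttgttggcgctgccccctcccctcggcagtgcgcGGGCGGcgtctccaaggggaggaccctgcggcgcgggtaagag

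CCAAT was found at -145 for Col4a1, on the strand opposite to the gene, and at -32 for Col4a2. GGGCGG was found for Col4a1 once, at 10 on the opposite strand, and for Col4a2 at 3 positions. The match of Col4a1 at 10 and that of Col4a2 at 8 are the same bases, within the shared stretch. The LKO minus F/F difference on HFD was 0.54 for Col4a1 and 0.18 for Col4a2, a gap of 0.36 that is close to the SD between probes of a gene. Col18a1, the multiplexin whose C-terminal part is endostatin, was among the collagens that the diet did not move past 1.5-fold, with 130 (F/F) and 128 (LKO) on chow and 109 (F/F) and 110 (LKO) on HFD. Its diet differences were -0.25 in F/F and -0.22 in LKO.

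The main chains of type VI collagen, Col6a1, Col6a2 and Col6a3, which form beaded filaments around cells, also rose on HFD. Col6a1 had relative signals of 0.928 (F/F) and 1.04 (LKO) on chow and 1.92 (F/F) and 2.34 (LKO) on HFD. Col6a2 had 0.0745, 0.136, 0.208 and 0.268, and Col6a3 had 0.439, 0.516, 1.02 and 1.46, in the same order of arrays. All 3 chains had both HFD arrays above both chow arrays. Their diet differences lay between 1.05 and 1.48 in F/F and between 0.98 and 1.5 in LKO. A dimmer probe of Col6a3 had bounds of opposite sign, -0.50 in F/F and 0.24 in LKO, so the call in F/F rests on the brighter probe. With normexp Col6a2 had 0.43 in F/F and 0.35 in LKO, below 1.5-fold in both. Col6a5, an alternative chain of type VI, was not detected on F/F chow (0.0184) and had 0.0448, 0.0734 and 0.0619 on the other arrays, which is at least 1.06 higher on HFD in F/F (0.05 with normexp).

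Among collagens on the surface of fibrils, Col14a1 (collagen XIV, which binds to fibrils) had relative signals of 0.365, 0.336, 0.619 and 0.739 in the same order, a diet difference of 0.76 in F/F and 1.14 in LKO (0.52, below 1.5-fold, and 0.74 with normexp). Col16a1 had 0.693, 0.754, 1.24 and 1.52, with diet differences of 0.84 and 1.01, and its second probe was not well above background on any array. Col8a1, a short-chain network collagen of vessel walls, had 0.193, 0.155, 0.563 and 0.640, with diet differences of 1.54 and 2.05. All 3 genes had both HFD arrays above both chow arrays.

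A smaller group was lower on HFD, made up of Col11a1, Col11a2, Col17a1 and Col20a1 in F/F and of Col20a1 and Col27a1 in LKO. Col20a1, a fibril-associated collagen, had relative signals of 0.0741 (F/F) and 0.0644 (LKO) on chow and 0.0304 (F/F, not well above background) and 0.0318 (LKO) on HFD, and was lower on HFD in both genotypes, by at least 1.22 in F/F and with a difference of -1.02 in LKO. With normexp these were -0.34 and -0.53, both below 1.5-fold. Col17a1, a transmembrane collagen of epithelial anchoring plaques, had 0.146, 0.0522, 0.0528 and 0.0436, so that F/F chow stood above the other arrays. With normexp its LKO minus F/F difference on chow was -0.38 and its diet difference in F/F -0.52, both below 1.5-fold. The second probe of Col17a1 was not well above background on any array. Col7a1, the anchoring fibril collagen, had 0.118, 0.0833, 0.0813 and 0.0632, and its diet differences of -0.53 and -0.40 did not reach 1.5-fold. Col9a2, Col12a1, Col13a1 and Col26a1 did not reach 1.5-fold in any comparison, and Col23a1, a transmembrane collagen, was detected on LKO HFD alone without reaching it.

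**Figure D2:**
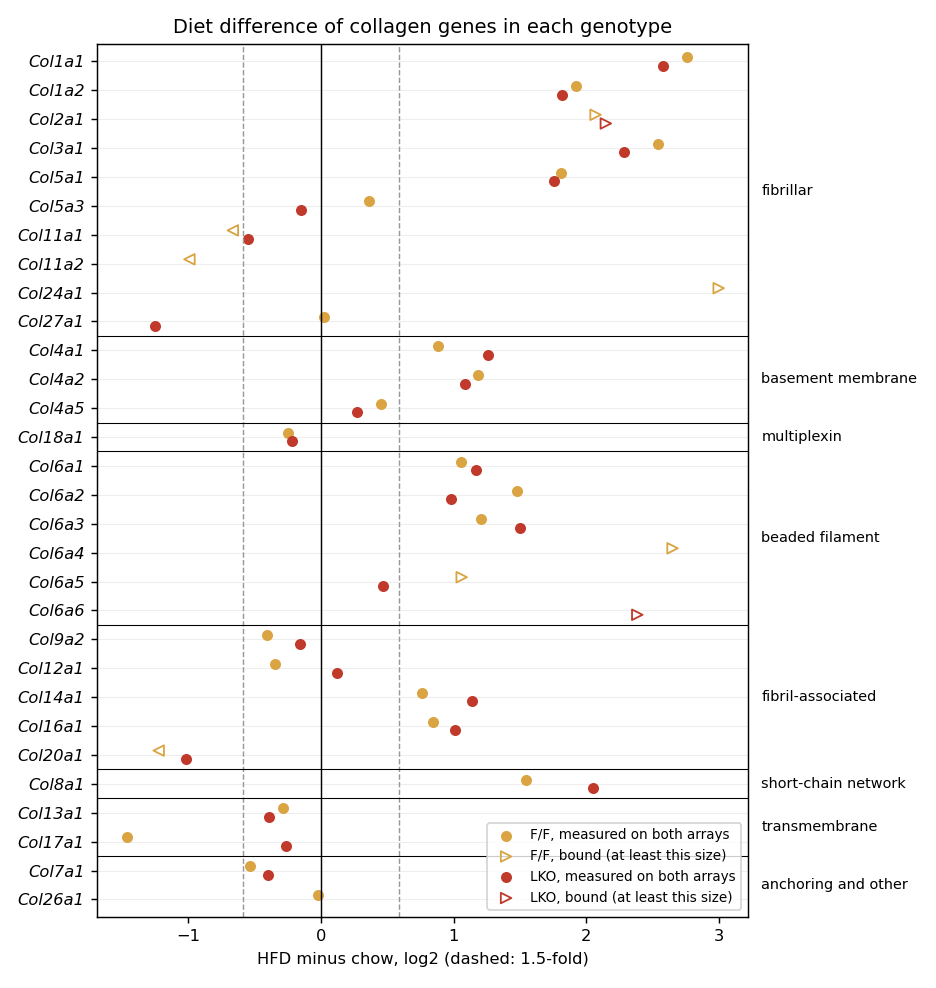
HFD minus chow difference (log2) of each collagen with a value, in F/F and in LKO, 1 array against 1 in each; triangles are bounds that point away from 0 and dashed lines mark 1.5-fold. The points of Col1a1, Col3a1, Col1a2, Col5a1, Col8a1, Col6a1, Col6a2, Col6a3, Col4a1, Col4a2, Col14a1 and Col16a1 lie right of the dashed line in both genotypes, and Col20a1 lies left of it in both.

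The genotype comparisons ask how collagen expression differed when hepatocytes lacked Lpiat1. On HFD, 2 collagens were at least 1.5-fold higher in LKO (Col4a5 and Col6a6) and 3 lower (Col24a1, Col27a1 and Col6a4) among 32 with a value, beside 8.07% of all genes higher and 6.08% lower. These counts are near the shares of all genes. The median collagen difference was 0.15 (-0.0043 without the filter on dim genes), against -0.03 for all genes, and for the 21 collagens detected throughout it was 0.25, against -0.04, with 1 gene higher and 1 lower beside 6.17% and 4.75%. At 2-fold, 1 collagen was higher and 3 were lower, beside 2.36% and 1.91% of all genes. On chow, 3 collagens were higher in LKO (Col1a1, Col4a5 and Col6a2) and 2 lower (Col11a2 and Col17a1) among 26 with a value, beside 3.52% and 3.47% of all genes, and the medians were 0.05 for collagens and 0.00 for all genes. Of the 21 detected throughout, 3 were higher and 1 lower on chow, beside 2.43% and 2.35%, and at 2-fold 1 collagen was higher and 1 lower, beside 1.11% and 1.03% of all genes. With normexp 0 collagens were past 1.5-fold on chow, beside 0.75% of all genes higher and 0.70% lower. The direction of Col11a2 on chow was not settled, since its brighter probe was lower in LKO by at least 0.74 in size, its other probe gave at least 0.45 in the opposite direction, and normexp gave 0.090. The genotype comparisons share no array with each other, and 19 of the 25 collagens with a value in both had the same sign. The share of all genes with the same sign was not computed.

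For Col1a1, Col1a2, Col3a1 and Col5a1 the genotype difference was positive on both diets and smaller than the diet difference. Col1a1 was 0.63 higher in LKO on chow and 0.44 higher on HFD. Its other probes gave 0.63 and 0.60 on chow and 0.43 and 0.17 on HFD. The values on chow and on HFD were 0.50 and 0.39 for Col1a2, 0.51 and 0.26 for Col3a1, and 0.25 and 0.20 for Col5a1. Of the values at the brightest probes, the chow difference of Col1a1 alone passed 1.5-fold. Those of Col5a1 and the HFD value of Col3a1 are below 0.32, the SD between 2 probes of a gene, which was taken on HFD only. Of the type VI chains, Col6a1, Col6a2 and Col6a3 also had positive values at the brightest probe. These were 0.17 on chow and 0.28 on HFD for Col6a1, 0.86 and 0.37 for Col6a2, and 0.23 and 0.52 for Col6a3. With normexp Col6a2 had 0.24 and 0.15. The dimmer probe of Col6a3 gave a bound of -0.24 on chow, opposite in sign. Col5a3, also a fibrillar chain, had -0.04 on chow and went the other way on HFD, with -0.55. Col18a1 had -0.02 on chow and 0.01 on HFD.

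Col4a5, a type IV chain that pairs with Col4a6 in some basement membranes and lies next to it in the genome, was the collagen past 1.5-fold in LKO on both diets. Its relative signals were 0.0483 (F/F) and 0.0977 (LKO) on chow and 0.0662 (F/F) and 0.118 (LKO) on HFD, so both LKO arrays were above both F/F arrays. The LKO minus F/F difference was 1.02 on chow and 0.84 on HFD. The gene is dim, and with normexp the differences were 0.27 and 0.22. Its second probe was not well above background on any array. Col4a6 was well above background on LKO HFD alone, at 0.0346.

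Col27a1, a fibrillar collagen of cartilage, was low on a single array. It had relative signals of 0.367 (F/F) and 0.324 (LKO) on chow and 0.373 (F/F) and 0.136 (LKO) on HFD, where the first 3 arrays were alike and LKO HFD was lower. This gave 2.74-fold lower in LKO on HFD and 2.38-fold lower on HFD in LKO, comparisons that share the LKO HFD array. The gene has 1 probe, and with normexp the genotype difference on HFD was -0.84.

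The largest collagen differences between genotypes came from genes seen on 1 array alone. Col24a1, a minor fibrillar collagen, had a relative signal of 0.281 on F/F HFD and 0.00862, 0.00956 and 0.0102 on F/F chow, LKO chow and LKO HFD. Col6a4, an alternative type VI chain, had 0.221 on F/F HFD and 0.0151, 0.00869 and 0.0057 on the others. Col6a6, another such chain, had 0.198 on LKO HFD and 0.00852, 0.0102 and 0.00774 on the others. On HFD, Col24a1 was at least 10.6-fold and Col6a4 at least 8.37-fold lower in LKO, and Col6a6 was at least 6.24-fold higher. These sizes depend on the background correction, and with normexp the log2 differences were -1.23 for Col24a1, -1.03 for Col6a4 and 0.79 for Col6a6. Each value came from 1 spot that was not marked as an outlier. The second probes of Col24a1 and Col6a4 were not well above background on any array, and Col6a6 has 1 probe. On the whole array 189 of 56605 probes were well above background on 1 array alone and at least 4-fold above every other array, between 39 and 52 per array. Col6a5, the neighbour of both Col6a4 and Col6a6 in the RefSeq gene order, had -0.25 in LKO minus F/F on HFD.

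**Figure D3:**
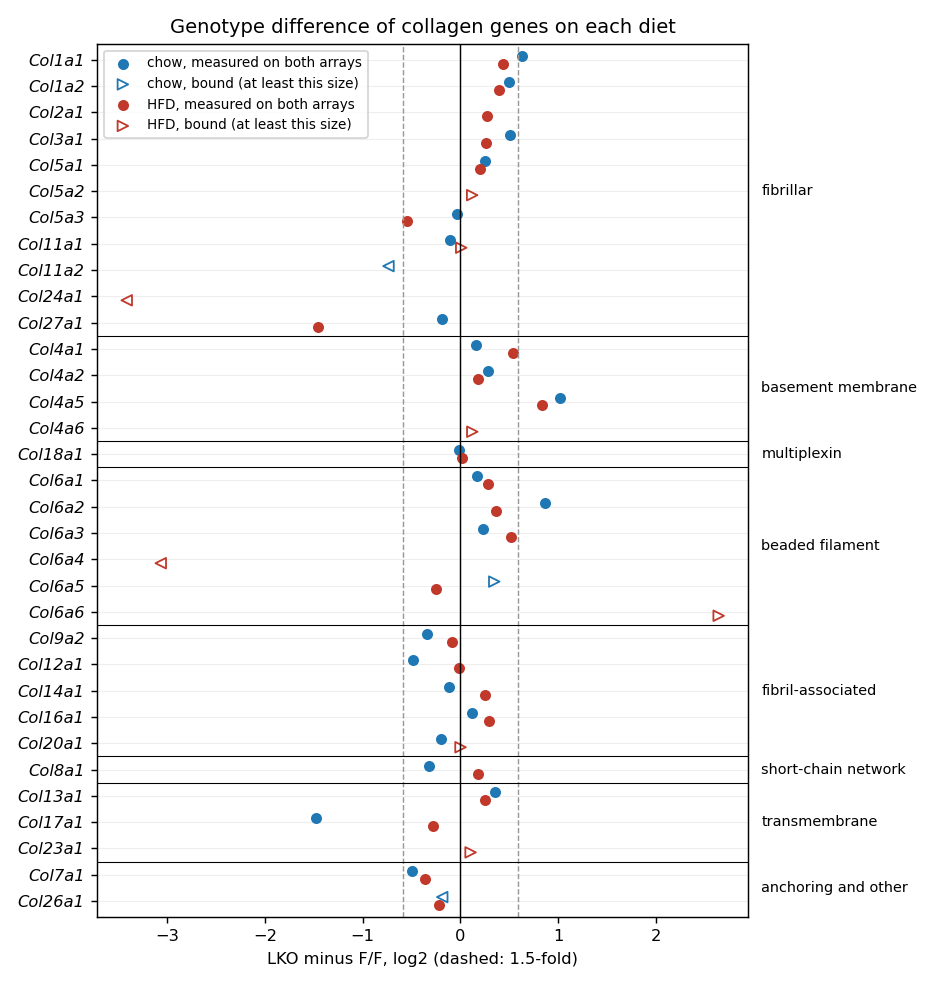
LKO minus F/F difference (log2) of each collagen with a value, on chow and on HFD, 1 array against 1 in each; triangles are bounds that point away from 0 and dashed lines mark 1.5-fold. Most points lie between the dashed lines, Col4a5 lies right of them on both diets, and Col24a1, Col6a4 and Col6a6 stand far out as bounds on HFD.

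The diet difference of the 21 collagens detected throughout was compared between genotypes. Its value in LKO minus that in F/F had a median of 0.03, with 11 genes above 0 and 10 below, beside a median of -0.05 for all genes. It ranged from -1.27 for Col27a1 to 1.20 for Col17a1. For Col1a1 the diet difference was 2.76 in F/F and 2.58 in LKO, an order that turned with normexp (1.85 and 1.89).

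Genes that modify, export, cut, link and bind collagen were read from a list of 56. In F/F, 12 of the 47 measurable genes passed 1.5-fold upward on HFD and 1 downward (median 0.17), and in LKO 19 of 48 were higher and 0 lower (median 0.42), while 13.2% of all genes were higher and 9.60% lower in F/F and 15.4% and 11.7% in LKO. Between the HFD arrays 7 of 48 were higher in LKO and 0 lower (median 0.23), and on chow 1 of 46 was higher and 1 lower (median 0.06). The shares of all genes were 8.07% and 6.08% on HFD and 3.52% and 3.47% on chow, so the chow counts do not stand above them.

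Of the chaperones and export factors, 3 of 6 rose on HFD in both genotypes, Serpinh1, Fkbp10 and Sparc, which were picked here after their values were seen. Serpinh1, the collagen-specific chaperone HSP47, had relative signals of 0.584 (F/F) and 0.760 (LKO) on chow and 1.51 (F/F) and 2.0 (LKO) on HFD, with the arrays in the same order as for Col1a1. Its genotype difference on HFD, 0.40, was the highest of its role, and that of Mia2, an export receptor, the lowest with -0.16. Cross-linking enzymes had the highest genotype median on HFD, 0.47 over 5 genes. Lox, a lysyl oxidase, was well above background on LKO HFD alone and there at least 1.78-fold above F/F, and Loxl2, a related enzyme, was the lowest of the role with 0.32. Loxl2 also rose on HFD, by 1.51 in F/F and 1.74 in LKO.

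The hydroxylases had the smallest diet median, 0.00 in F/F and 0.23 in LKO over 13 and 12 genes. P4ha1, a catalytic chain of prolyl hydroxylase, differed by 0.64 between genotypes on HFD, and P4hb, its partner chain, which also folds other secreted proteins, by -0.47. Among enzymes that cut procollagen, Adamts14 was highest with 0.71 and Tll1 lowest with -0.06. Ddr1, a receptor kinase for collagen, had relative signals of 0.132, 0.0955, 0.189 and 0.401 in the same order. The LKO HFD array was the highest, 2.13-fold above F/F HFD, whereas on chow its LKO minus F/F difference was -0.46. Itga1, an integrin chain that binds collagen, was the lowest of the receptors on HFD with -0.02. Of the binding proteoglycans and glycoproteins, Lum (lumican) was highest in LKO on HFD with 0.65 and Fn1 (fibronectin, made in bulk by hepatocytes) lowest with -0.07.

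**Figure D4:**
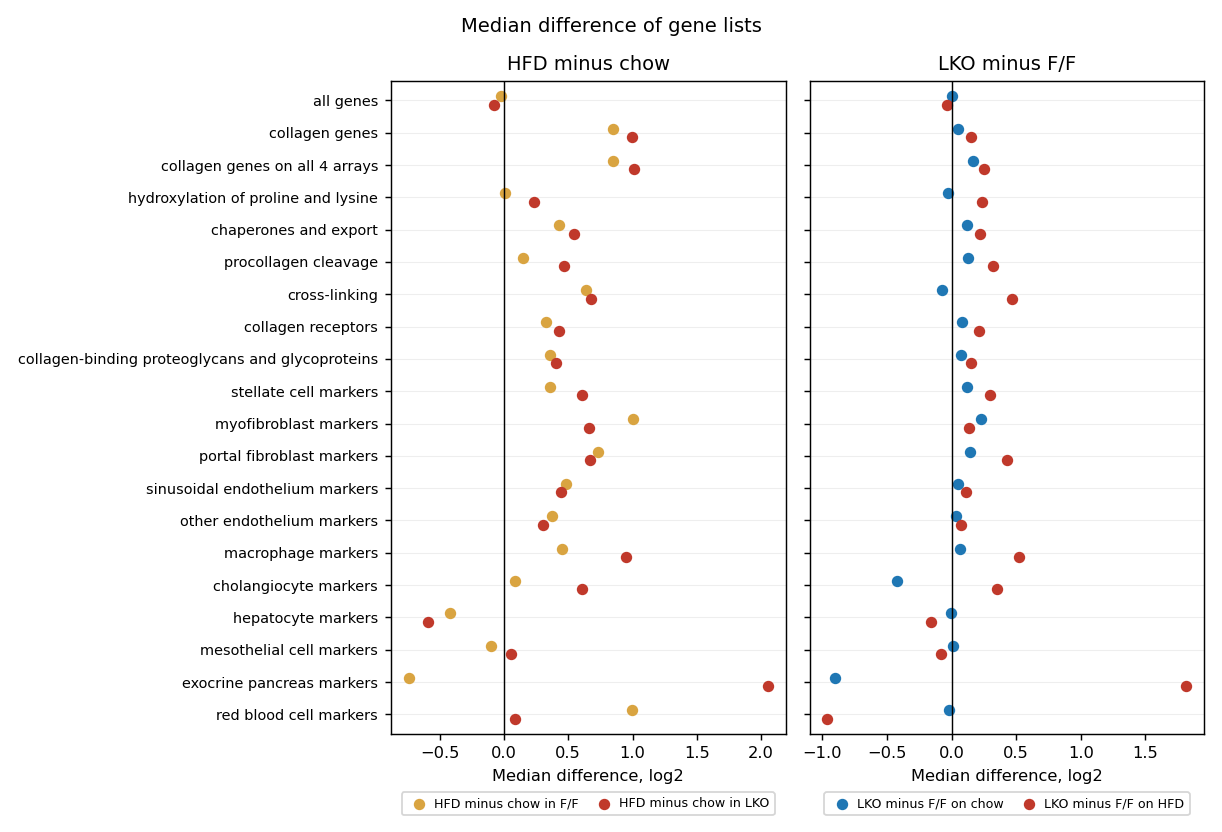
Median log2 difference of gene lists, HFD minus chow on the left and LKO minus F/F on the right, from 1 array per condition, with all genes, collagens, the roles of the collagen pathway and markers of liver and other cell types. Collagens have diet medians of 0.84 and 1.0 and smaller genotype medians, and markers of exocrine pancreas and red blood cells differ between arrays as well.

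Lists of markers of the cells that make collagen were read as well, and their members did not all move alike. The summed relative signal of 12 stellate cell markers was 57.6 (F/F) and 61.8 (LKO) on chow and 68.9 (F/F) and 81.4 (LKO) on HFD. Such a sum is set mostly by the brightest probes, and Ecm1 gave 34.4 of the 57.6 on F/F chow. The median diet difference of the 12 markers was 0.36 in F/F and 0.61 in LKO. All 12 were above 0 in LKO minus F/F on HFD (median 0.30), a comparison in which 45.9% of all genes with a value were above 0. The sums of 8 myofibroblast markers were 17.6, 19.9, 36.6 and 37.7, and those of 9 portal fibroblast markers 3.66, 3.92, 5.77 and 8.32. Between the HFD arrays 6 of the 8 myofibroblast markers were higher in LKO and 2 lower, Tpm2 with -1.34 and Myl9 with -0.16. Of the 9 portal fibroblast markers 6 were higher and 3 lower. The 10 hepatocyte markers, which define the bulk of the tissue, were lower on HFD in both genotypes (sums of 4332, 4379, 3423 and 2938). The sum of the 10 macrophage markers was highest on LKO HFD (115, 108, 150 and 196), although 2 of them, Marco (8.39) and Timd4 (0.331), were lowest there. The sum of the 9 sinusoidal endothelium markers was higher on both HFD arrays (48.8, 51.2, 60.4 and 60.6). Of these markers 8 of 9 were higher on HFD in F/F and 7 of 9 in LKO, beside 47.7% and 43.5% of all genes above 0. The 6 mesothelial cell markers had sums between 1.09 and 1.21.

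Genes of cells foreign to the liver tissue differed too. The 10 exocrine pancreas markers summed to 25.1 (F/F) and 14.9 (LKO) on chow and 13.4 (F/F) and 49.5 (LKO) on HFD. All 10 were higher in LKO on HFD (median 1.82), beside 45.9% of all genes above 0. The 5 red blood cell markers on the array summed to 172, 171, 343 and 174, highest on F/F HFD. In F/F 4 of them were higher on HFD and 1 lower, Alas2, which had 21.4, 21.2, 16.0 and 8.34. Of the markers, Lox, Eln, Gli1, Gpnmb, Epcam and Cftr were below background on some arrays, and Sele and Lrrn4 on all. The part of these cell types in the collagen differences was not tested.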

How the data were processed

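Liver RNA was measured on 4 SurePrint G3 Mouse arrays, 1 per condition, grouped by the labels. The authors deposited background-subtracted spot intensity values from Agilent Feature Extraction 12.0.3.1, with flags for outliers, saturation and signal well above background, and a value table that equals this signal times 1 factor per array (2.60, 2.63, 2.41 and 2.10). How the factors were made is not given in the sources used here. Labels and methods name different RNA extraction kits.

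Processed signals were put on the log2 scale and centred on the 75th percentile of the 59305 non-control spots of each array (Python 3.11.15, pandas 2.3.3, numpy 2.4.6), and spots of a probe were averaged without outliers. Accessions were matched to symbols through RefSeq (GRCm38.p6), 33762 of 56605 probes. The array's own annotation names another build, so gene coordinates are not given. The brightest probe stood for a gene. A gene dim on 1 array was compared with the higher of the lowest detected signal there and its own signal. Collagens past 1.5-fold in any comparison and the main liver chains are named, and for each role of the pathway the genes with the highest and lowest LKO minus F/F difference on HFD. Members, lists and classes were chosen with earlier results of these data known. The counting rule was tested on simulated 2-fold changes of genes well above the lowest detected signal, and the rule for bounds on a small made example. Scaling, choice of probe, background correction and changes near 1.5-fold were not simulated. Alternatives were normexp on median spot and background signals (offset 50, limma 3.58.1, R 4.3.3), other scalings, the value table, filters, other probes of a gene and a 2-fold threshold. Figures were drawn with matplotlib 3.10.9.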

Additional observations from a re-analysis of the deposited data

Results flagged for a closer look

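For 3 collagens the difference in 1 comparison had the opposite sign in its counterpart, each from 1 array against 1, and the difference between the comparisons was not tested. Col14a1 was -0.12 in LKO minus F/F on chow and 0.26 on HFD. Col8a1 was -0.32 on chow and 0.18 on HFD. The HFD minus chow difference of Col5a3 was 0.36 in F/F and -0.15 in LKO. None of these values reached 1.5-fold. All but -0.32 and 0.36 are smaller in size than 0.32, the SD between 2 probes of a gene. That SD was taken for LKO minus F/F on HFD and not for chow or diet differences.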

How the results depend on the processing

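Among the summary counts and medians of the collagens, 77 values under an alternative stayed close to the reported ones, 37 moved and 2 changed sign. Among the single genes 597 stayed close, 161 moved and 3 changed sign. A change of sign was counted only where the reported median was at least 0.09 in size or the reported gene difference at least 1.5-fold. Smaller values that turned sign are among those that moved or stayed close. Quantile normalization and both other choices of the 75th percentile moved none of the summary values. Normexp background correction, which draws dim genes together, gave 1 collagen at least 1.5-fold higher in LKO on HFD (2.99% of all genes). On chow it gave 0 higher and 0 lower (0.75% and 0.70% of all genes). For the diet it gave 0 lower in F/F and 1 lower in LKO (3.91% and 5.77% of all genes), with medians of 0.43 and 0.35. Col11a2 then had 0.090 on chow. The deposited value table, which scales each array by 1 factor, moved the diet median of all genes in F/F from -0.02 to 0.11 and that of collagens to 0.98 in F/F and 0.61 in LKO. Without filter and floor, LKO on HFD had 4 higher and 7 lower of 44 collagens (10.0% and 8.67% of all genes) with a median of -0.0043. Chow had 5 and 6 (6.56% and 7.57% of all genes) with a median of 0.15. The diet median in F/F was 0.41, and in LKO 7 were lower (17.1% of all genes) and the median was -0.035. In this setting genes below background enter with their noise. With only the 21 collagens detected on all 4 arrays, 1 was higher and 1 lower in LKO on HFD (median 0.25), beside 6.17% and 4.75% of all genes so detected. In LKO on chow 1 was lower (2.35% of those genes, median 0.16). For the diet 1 was lower in each genotype (8.21% of those genes in F/F and 10.8% in LKO). With a gene's probes averaged, 1 was higher in LKO on HFD among 30 with a value (8.04% of all genes). The diet medians were 0.33 in F/F and 0.24 in LKO. With the dimmest probe, LKO on HFD had 1 lower among 22 with a value (6.70% of all genes). Chow had 1 higher and 0 lower among 17 (3.72% and 3.96% of all genes, median 0.16). The diet in F/F gave 10 higher and 1 lower among 17 (12.6% and 10.4% of all genes), and the diet median in LKO was 1.11. Col11a2 then had 0.45 on chow and Col6a3 had -0.50 for the diet in F/F. At 2-fold, LKO on HFD had 1 higher (2.36% of all genes) and chow had 1 higher and 1 lower (1.11% and 1.03%). The diet in F/F gave 2 lower (2.94%). Where no cause is named, the cause was not tested.

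No paired analysis was possible because each condition had 1 array. All arrays were scanned together on 1 slide, so slide was no separate factor. The number of arrays limits every value: spread between mice was not measured, and dim genes rest on signals near background.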
